A study of Mus musculus with 12 samples.

Results

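Respiratory complex I of the mouse heart is described here through its nuclear genes, the 46 genes whose symbol begins with Nduf in each of the deposited tables, out of 16246 genes listed in any of them. Symbols that end in -ps, which mark pseudogenes, were left out. Of the 46, 38 carry subunit names and 8 are assembly factors whose symbol begins with Ndufaf, and no measured value entered the choice. The 38 include Ndufa4, whose protein is now counted with complex IV, its paralog Ndufa4l2, and Ndufab1, the mitochondrial acyl carrier protein. GENCODE M21 lists 49 such symbols; the other 3, Ndufa11b, Ndufs6b and Ndufb4c, were not analysed here. Values of Ndufa11, Ndufs6, Ndufb4 and Ndufab1, which have such near copies or a pseudogene copy, are uncertain where reads could fit either copy.

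PolyA RNA was sequenced from hearts of male C57Bl/6J mice aged 12 weeks, with 3 samples in each of 4 groups: BCAA-free TAC, BCAA-control TAC, BCAA-free sham and BCAA-control sham. The BCAA-free diet lacked the branched-chain amino acids leucine, isoleucine and valine, whereas the BCAA-control diet supplied them with the other essential amino acids. Either diet began 4 days before surgery and went on for the 2 weeks between surgery and collection. TAC, transverse aortic constriction, narrows the aorta so that the left ventricle pumps against a raised pressure, and sham surgery leaves the aorta open. Whether each sample came from 1 heart or from several is not given, so the spread behind the p-values may be technical.

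Complex I oxidises NADH in the mitochondrial matrix, passes the electrons through a flavin and a chain of iron-sulfur clusters to ubiquinone, and pumps protons across the inner membrane. Its N module takes up NADH, its Q module reduces ubiquinone, and the proximal and distal parts of the membrane arm hold the proton channels. The catalytic core consists of 7 nuclear subunits and 7 subunits made from mitochondrial DNA, and the remaining accessory subunits surround it. The Ndufaf proteins help to build the complex and are not part of the finished enzyme. Heart muscle is dense in mitochondria and draws most of its ATP from oxidative phosphorylation, and transcripts of this pathway often decline in rodent hearts under lasting pressure overload.

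Promoter sequence for 40 of the 46 genes came from RefSeq on GRCm38.p6, as windows of 300 bases that span 250 bases before the transcription start and 50 after it. The 250 bases before the start are printed for 4 genes, 5′ to 3′ on the gene's own strand, as examples with and without motif matches among genes that differ in how they moved. They were chosen after their values and matches were seen. Ndufs7 had the highest log2 fold change between the diets after TAC, Ndufb4 and Ndufa11 are subunits of the membrane arm, and Ndufaf4 is an assembly factor that did not pass the test in any comparison. Capitals mark matches to the motifs named in the next paragraph.
Ndufs7 (chr10:80249199-80249448, plus strand): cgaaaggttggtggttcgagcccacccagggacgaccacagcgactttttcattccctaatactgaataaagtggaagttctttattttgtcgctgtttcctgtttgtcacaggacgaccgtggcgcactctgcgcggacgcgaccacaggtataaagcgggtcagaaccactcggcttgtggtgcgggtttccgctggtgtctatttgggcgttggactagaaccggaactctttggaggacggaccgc
Ndufb4 (chr16:37654369-37654618, minus strand): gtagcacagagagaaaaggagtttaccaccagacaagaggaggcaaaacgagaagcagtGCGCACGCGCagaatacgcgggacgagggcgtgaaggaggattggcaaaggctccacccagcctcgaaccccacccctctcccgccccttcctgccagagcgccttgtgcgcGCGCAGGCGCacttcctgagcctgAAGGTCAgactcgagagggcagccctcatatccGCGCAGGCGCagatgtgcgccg
Ndufa11 (chr17:56717512-56717761, plus strand): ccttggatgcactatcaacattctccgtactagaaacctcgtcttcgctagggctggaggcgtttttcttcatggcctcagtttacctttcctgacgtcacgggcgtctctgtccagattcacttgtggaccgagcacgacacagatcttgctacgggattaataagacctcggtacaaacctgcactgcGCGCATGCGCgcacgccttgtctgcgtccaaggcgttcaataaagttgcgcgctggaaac
Ndufaf4 (chr4:24897833-24898082, plus strand): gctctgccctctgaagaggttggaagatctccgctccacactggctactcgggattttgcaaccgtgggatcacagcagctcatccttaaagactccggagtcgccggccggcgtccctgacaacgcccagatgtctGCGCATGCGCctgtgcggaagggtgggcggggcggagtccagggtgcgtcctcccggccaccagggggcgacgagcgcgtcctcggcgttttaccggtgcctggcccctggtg

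Motifs of factors known to act at nuclear genes of the respiratory chain were searched on both strands of the 300-base windows. The NRF1 motif, GCGC then AT then GCGC, lay in 3 of 40 windows (7.5%), namely Ndufa11, Ndufaf4 and Ndufaf5, against 1.07% of the windows of 27025 genes. With any 2 bases between the GCGC ends (GCGC then NN then GCGC, which includes every match of the exact form) it lay in 11 of 40 (27.5%), against 1891 of the 27025. The YY1 motif AAGATGGCG lay in 6 of 40 (15%), among them Ndufs7, outside the 250 bases printed, against 1.64% of all windows. The ETS motif CCGGAAG, bound by GABP, lay in 6 of 40 (15%), against 9.93%. The estrogen-related receptor motif TCAAGGTCA lay in 0 of 40, against 0.466%, and its core AAGGTCA in 3 of 40 (7.5%), against 5.38%. A match is a description of the letters and not a binding site, and the absence of one says only that these letters were not in the window.

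Values are normalized read counts, which are gene read counts divided by 1 size factor per library. The size factors were set separately in each table, so each comparison stays within its table. Depth, as reads recovered from the values, was 13847107 to 52065900 per library. Log2 fold changes are given ± SE on the scale of log2(value + 1), and a gene was called at an adjusted p under 0.05 by limma with Benjamini-Hochberg adjustment over all genes tested. All 46 genes passed the minimum mean value of 10 in every comparison. BCAA-control sham replicate 3 stood apart from the other sham libraries on that diet. In the table that sets TAC against sham on the BCAA-control diet, its subunits had a median of 0.72 (log2) above their table means, against 0.12 and 0.03 in replicates 1 and 2. Trends over all genes were taken on each library's deviations from the gene means over the 12 libraries of both TAC tables, which were normalized separately. The deviations of BCAA-control sham replicate 3 correlated with transcript length at a Spearman rho of -0.41, against 0.11 and 0.20 in replicates 1 and 2. The deviations of the 3 BCAA-free TAC libraries correlated with GC content at 0.20, 0.40 and 0.39. The other 9 libraries lay between -0.22 and 0.04. With transcript length the BCAA-free TAC libraries correlated at -0.30, -0.12 and -0.36, and the BCAA-control TAC libraries at 0.23, 0.16 and 0.24. Counts of called genes that touch these libraries are given with and without the library or the GC and length trend. Most values of single genes, and the levels per kilobase, are given only with every library and without removal of that trend.

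Per kilobase of the longest annotated transcript, subunits were far more abundant than assembly factors. In BCAA-free sham hearts the level per kilobase had a median of 7771 for the 38 subunits and 453 for the 8 Ndufaf genes, and in BCAA-control sham hearts the medians were 7998 and 479. Ndufb9, of the distal membrane arm, had the highest level per kilobase in both groups, at 21283 ± 904 in BCAA-free sham and 21962 ± 5870 in BCAA-control sham hearts (SD, n = 3 each), and in BCAA-control sham hearts its SD spans the next gene, Ndufb10, at 18694 ± 3754. Ndufa4l2, at 387 in BCAA-free sham and 425 in BCAA-control sham hearts, was the only subunit-named gene within the range of the assembly factors, which ran from 213 to 893 per kilobase in BCAA-free sham and from 212 to 858 in BCAA-control sham hearts. Subunit transcripts were also shorter, with a median length of 1025.5 bases against 1482.5 for Ndufaf genes, and richer in GC, at 51.4% against 47.5%.

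After TAC, the subunit genes were higher in hearts of mice on the BCAA-free diet than on the BCAA-control diet, and most assembly factors did not pass the test. Of 38 subunits, 35 were called higher and 0 lower, and of 8 Ndufaf genes 1 was called higher, where 34.2% of all 15872 genes tested were called, 16.5% higher and 17.7% lower. The median log2 fold change was 0.56 over the subunits and 0.14 over the Ndufaf genes, against 0.00 over all genes tested. Every BCAA-free TAC library lay above every BCAA-control TAC library for 37 of 38 subunits and 3 of 8 Ndufaf genes, against 25.2% of all genes, and the reverse held for none of the 46, against 25.6% of all genes. The subunits not called were Ndufa10 (0.30 ± 0.11, adjusted p = 0.0604), Ndufs1 (0.32 ± 0.12, adjusted p = 0.0661) and Ndufa4l2 (-0.17 ± 0.12, adjusted p = 0.288), all by limma.

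**Figure D1:**
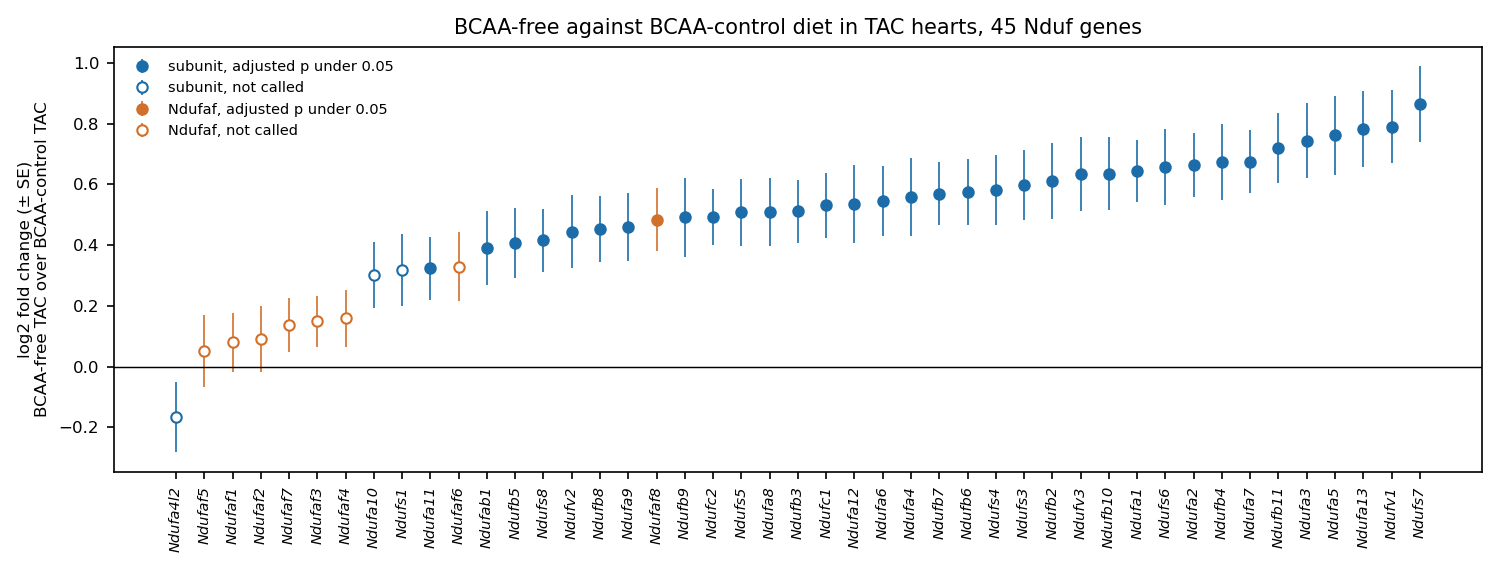
Log2 fold change of BCAA-free TAC over BCAA-control TAC (y axis) for 45 of the 46 Nduf genes (x axis, ordered by value), with SE bars; blue points are subunits, orange points Ndufaf genes, and filled points passed an adjusted p under 0.05. Ndufs7 is highest at 0.86 and Ndufa4l2 lowest at -0.17, and 6 of the 8 Ndufaf genes lie to the left of every subunit drawn but Ndufa4l2.

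In the Q module, which hands electrons to ubiquinone, all 6 subunits rose, with a median log2 fold change of 0.58. Ndufs7, which carries the last iron-sulfur cluster before ubiquinone, had values of 19826, 19251 and 19747 in BCAA-free TAC hearts, against 12976, 9053 and 10640 in BCAA-control TAC hearts. The groups were separate, and its log2 fold change of 0.86 ± 0.12 (limma, adjusted p = 0.002) was the highest of the 46 genes. That rank is from the fit without removal of the GC and length trend, and the GC content of Ndufs7 was 59.6%, against a subunit median of 51.4%. Ndufs3, a core subunit that links the Q and N modules, had 13043, 12284 and 13479 in BCAA-free TAC hearts, against 9888, 7245 and 8701 in BCAA-control TAC hearts (0.60 ± 0.12, adjusted p = 0.00586). Ndufs8, which holds iron-sulfur clusters next to that of Ndufs7, had 8247, 7130 and 8199 in BCAA-free TAC hearts, against 6446, 5172 and 6091 in BCAA-control TAC hearts (0.42 ± 0.10, adjusted p = 0.0158). In each of these core subunits the lowest BCAA-free TAC value lay above the highest BCAA-control TAC value, and replicate 2 was the lowest BCAA-control TAC library.

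In the N module, the NADH-oxidising tip, 9 of 10 subunits rose, with a median of 0.61. Ndufv1, which binds the flavin and NADH, had values of 35431, 32712 and 34683 in BCAA-free TAC hearts, against 22653, 16614 and 20644 in BCAA-control TAC hearts (0.79 ± 0.12, limma adjusted p = 0.00239). Its core partner Ndufv2 had 17128, 14025 and 15950 in BCAA-free TAC hearts, against 12436, 9816 and 12485 in BCAA-control TAC hearts (0.44 ± 0.12, adjusted p = 0.021). Ndufs1, the largest core subunit of this module, also had separate groups, with 24950, 22728 and 24071 in BCAA-free TAC hearts, against 21172, 16028 and 20811 in BCAA-control TAC hearts, but did not pass the test. The accessory subunits Ndufa7 and Ndufa2 were among the 4 genes with the smallest p. Ndufa7 had 5278, 4545 and 5217 in BCAA-free TAC hearts, against 3419, 2752 and 3267 in BCAA-control TAC hearts (0.67 ± 0.10, adjusted p = 0.00237). Ndufa2, a subunit with a thioredoxin-like fold, had 6900, 5269 and 6071 in BCAA-free TAC hearts, against 4031, 3635 and 3792 in BCAA-control TAC hearts (0.66 ± 0.10, adjusted p = 0.00277).

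In the membrane arm, 8 of 9 proximal subunits rose (median 0.51), with Ndufa10, which resembles a nucleoside kinase, as the exception, and 10 of 10 distal subunits rose (median 0.57). The range over these 19 genes ran from 0.30 in Ndufa10 to 0.78 in Ndufa13, also known as GRIM-19. Of the genes placed in no module, Ndufa4 had values of 23911, 18531 and 21570 in BCAA-free TAC hearts, against 15731, 12368 and 15395 in BCAA-control TAC hearts (0.56 ± 0.13, limma adjusted p = 0.0107), and Ndufab1 rose by 0.39. The paralog of Ndufa4, Ndufa4l2, known as a gene induced in low oxygen, had 547, 481 and 591 in BCAA-free TAC hearts, against 586, 685 and 549 in BCAA-control TAC hearts, and the groups overlapped. Its position is chr10:127514967-127517154 (plus strand, GRCm38). The median was 0.56 over the 7 core subunits and 0.57 over 29 accessory ones.

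Among the assembly factors, Ndufaf8 rose, with values of 801, 657 and 713 in BCAA-free TAC hearts, against 559, 479 and 511 in BCAA-control TAC hearts (0.48 ± 0.10, limma adjusted p = 0.00853). In human cells its protein partners NDUFAF5, which hydroxylates NDUFS7. Ndufaf5 itself had 539, 458 and 578 in BCAA-free TAC hearts, against 520, 451 and 549 in BCAA-control TAC hearts, with overlapping groups and the lowest log2 fold change of the Ndufaf genes (0.05 ± 0.12, adjusted p = 0.769). Ndufaf6, needed early in assembly of the Q module and its membrane anchor, had 517, 510 and 550 in BCAA-free TAC hearts, against 392, 382 and 488 in BCAA-control TAC hearts, and lay just outside the threshold (0.33 ± 0.11, adjusted p = 0.0503). The other 5 ranged from 0.08 in Ndufaf1 to 0.16 in Ndufaf4.

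**Figure D2:**
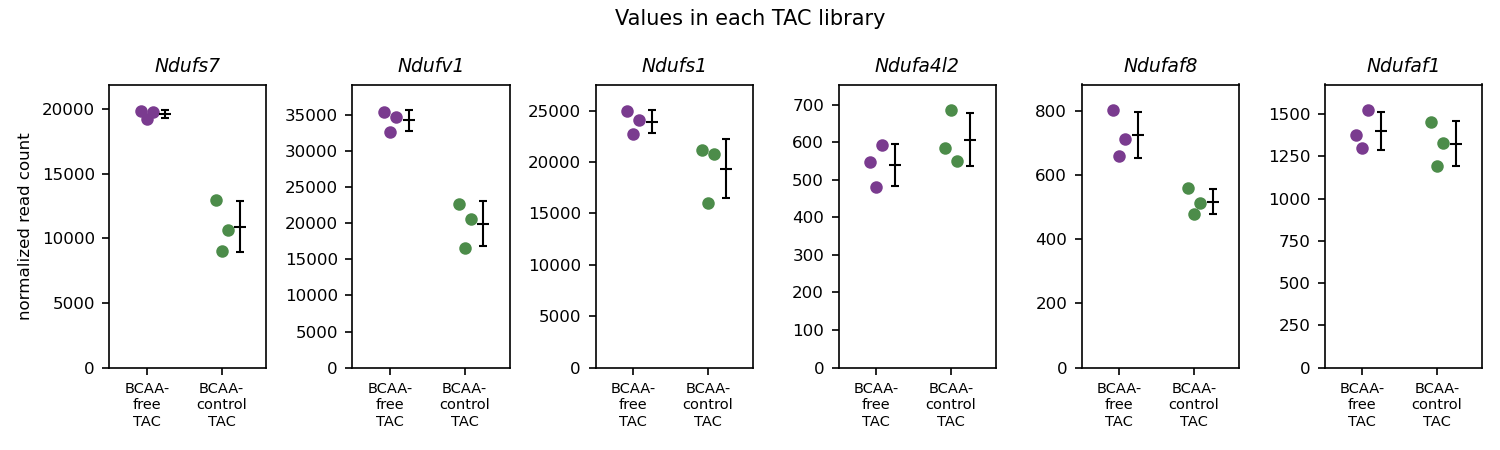
Normalized read counts (y axes, each from 0) in the 3 BCAA-free TAC (purple) and 3 BCAA-control TAC (green) libraries for 6 genes picked after their values were seen; points are libraries and black marks the mean ± SD. The groups are apart in Ndufs7, Ndufv1, Ndufs1 and Ndufaf8 and overlap in Ndufa4l2 and Ndufaf1.

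Other parts of the pathway were counted over lists of their own. Of 12 further complex I assembly factors tested, 2 were called higher, Dmac2 (0.53) and Ecsit (0.49), against 16.5% of all genes. Their median was 0.22. The 7 complex I genes of mitochondrial DNA had 0 called by limma and 0 with an unadjusted p under 0.05, with a median of 0.13 and a range of -0.09 to 0.27. Of 41 nuclear subunits of complexes II to V tested, 40 were called higher, with a median of 0.54. Of 9 regulators of mitochondrial gene expression, 1 was called higher, Esrra, the estrogen-related receptor alpha (0.56), against 16.5% of all genes. The others were not called, Ppargc1a among them at -0.27.

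Markers of the cell types in the heart differed between the same groups. In bulk tissue, fewer cells of a type and less RNA per cell cannot be told apart. The 8 cardiomyocyte markers summed to 3140710 to 3219240 normalized reads in BCAA-free TAC hearts, against 2000570 to 2492990 in BCAA-control TAC hearts, with 6 of 8 called higher and a median log2 fold change of 0.56. The other 2 were below 0, the lowest at -0.38, and 0 were called lower. For 1 of them every BCAA-free TAC library lay below every BCAA-control TAC library, as for 25.6% of all genes. The 6 fibroblast markers summed to 24348 to 31157 in BCAA-free TAC hearts, against 54970 to 135468 in BCAA-control TAC hearts, with 6 of 6 called lower. All 6 macrophage markers were also lower, with sums of 5889 to 6866 in BCAA-free TAC hearts against 9286 to 11424 in BCAA-control TAC hearts. Of 5 endothelial markers 2 were called lower, and of 5 markers of smooth muscle and pericytes 1 was called in each direction. Beside these marker counts, 16.5% of all genes were called higher and 17.7% lower. No marker was at 0 in any library. BCAA-control TAC replicate 2 had both the highest fibroblast sum and the lowest subunit level. The part of these markers in the subunit result was not tested. Without that replicate the subunit median was 0.46 and 34 subunits were called higher, against 16% of all genes.

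**Figure D3:**
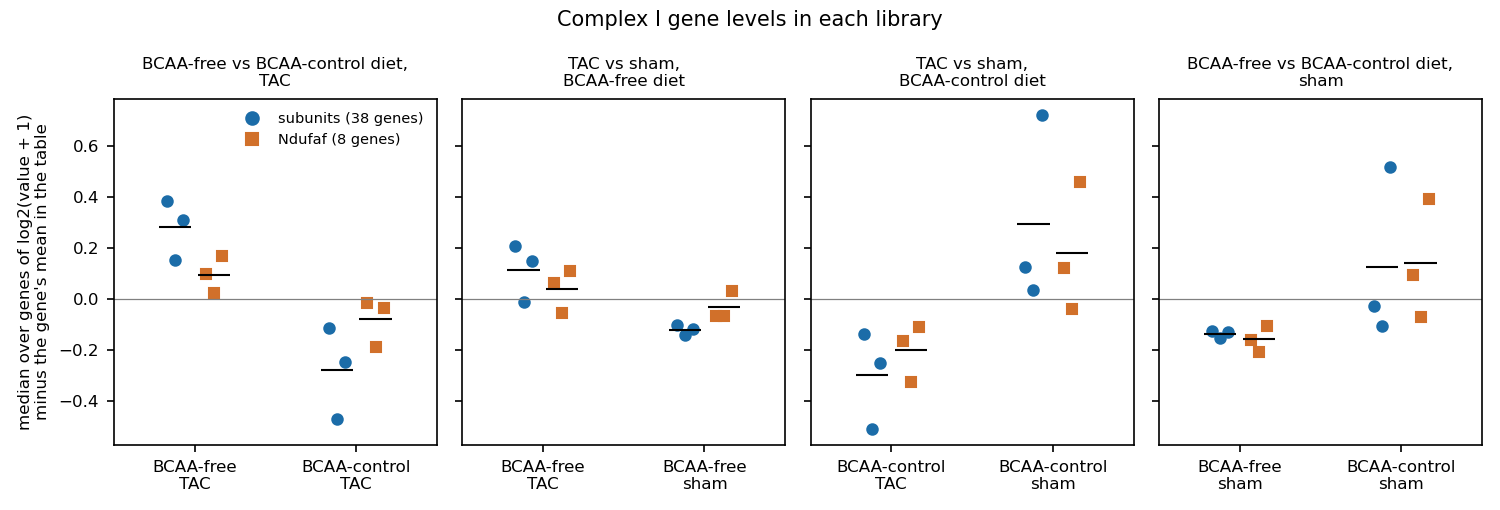
Median over genes of log2(value + 1) minus the gene's mean in its table (y axis), for 38 subunits (blue circles) and 8 Ndufaf genes (orange squares) in each library; panels are the 4 tables, x positions the 2 groups of each, and bars the group means. After TAC the BCAA-free libraries lie between 0.15 and 0.38 for subunits and the BCAA-control libraries between -0.47 and -0.11, and BCAA-control sham replicate 3 lies at 0.72 in the table of TAC against sham and at 0.52 in the table of the sham diets.

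With the GC and length trend of each library removed, 32 subunits were called higher in BCAA-free TAC than in BCAA-control TAC hearts. Ndufa4l2 was called lower (-0.49, adjusted p = 0.0128 by limma). The medians were 0.43 for subunits and 0.12 for Ndufaf genes. Ndufa8 (0.27, adjusted p = 0.0673), Ndufa11 (0.04, adjusted p = 0.801), Ndufb9 (0.22, adjusted p = 0.184), Ndufs8 (0.18, adjusted p = 0.164) and Ndufaf8 (0.22, adjusted p = 0.106) were then not called. Ndufs1 (0.35, adjusted p = 0.0464) and Ndufaf4 (0.30, adjusted p = 0.036) were then called higher. Over all genes 14.3% were called higher and 14.0% lower in that fit. Without that removal, log2 fold changes of the 46 genes correlated with transcript length (Spearman rho -0.39) and GC content (0.25). Over 15839 genes the correlations were -0.28 and 0.23. With libraries scaled to their totals alone, where the median of all genes was -0.13, the subunit median was 0.43 and 32 were called higher. Over all genes 9.21% were called higher and 23.9% lower with that scaling. The authors' deposited table has 37 subunits and 1 Ndufaf gene as significant and higher, against 16.6% of all genes, with 18.4% lower.

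Whether TAC itself changed these genes was compared with sham surgery on each diet. On the BCAA-free diet, 12 of 38 subunits were higher after TAC and 0 lower, and 0 of 8 Ndufaf genes were called, where 6.23% of 15670 genes tested were called, 3.34% higher and 2.89% lower. The 12 are 11 subunits of the complex (Ndufa1, Ndufa2, Ndufa3, Ndufa13, Ndufb2, Ndufb3, Ndufb7, Ndufb10, Ndufb11, Ndufs7 and Ndufv3) and Ndufa4l2. The median log2 fold change was 0.23 over subunits and 0.03 over Ndufaf genes, against 0.00 over all genes. TAC libraries lay above all sham libraries for 27 of 38 subunits and 2 of 8 Ndufaf genes, against 14.6% of all genes.

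Ndufb11, an accessory subunit of the distal membrane arm encoded on the X chromosome, had values of 13591, 12022 and 13231 in BCAA-free TAC hearts, against 9492, 9549 and 9814 in BCAA-free sham hearts (0.43 ± 0.07, limma adjusted p = 0.0117). Ndufs7 had 19133, 18542 and 19048 in BCAA-free TAC hearts, against 13721, 14784 and 14914 in BCAA-free sham hearts (0.39 ± 0.07, adjusted p = 0.0138). Ndufa3, of the proximal arm, had 8382, 6909 and 8019 in BCAA-free TAC hearts, against 6093, 6368 and 5657 in BCAA-free sham hearts (0.36 ± 0.08, adjusted p = 0.0327). In these genes the lowest TAC value lay above the highest sham value. Ndufv3, an accessory subunit of the N module, had 7785, 6202 and 7642 in BCAA-free TAC hearts, against 5686, 5642 and 5372 in BCAA-free sham hearts (0.37 ± 0.09, adjusted p = 0.0365). Ndufa4l2 had 528, 464 and 570 in BCAA-free TAC hearts, against 431, 362 and 360 in BCAA-free sham hearts (0.44 ± 0.12, adjusted p = 0.0465), and Ndufa4 had 23075, 17848 and 20807 in BCAA-free TAC hearts, against 18986, 17516 and 18910 in BCAA-free sham hearts (0.15 ± 0.09, adjusted p = 0.339). Of the core subunits, Ndufs7 rose and the others were not called, with Ndufs1 lowest at -0.10 ± 0.07 (adjusted p = 0.459). Of the Ndufaf genes, Ndufaf8 was highest, with 773, 633 and 688 in BCAA-free TAC hearts, against 619, 557 and 619 in BCAA-free sham hearts (0.22 ± 0.10, adjusted p = 0.202). Ndufaf4 was lowest, with 1679, 1697 and 1796 in BCAA-free TAC hearts, against 1797, 1684 and 2061 in BCAA-free sham hearts (-0.10 ± 0.08, adjusted p = 0.533).

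The number of calls moved with single libraries and with the fit, and so did the share of all genes called, not always in the same direction. With BCAA-free sham replicate 1, 2 or 3 left out, 1, 0 and 5 subunits were called, against 0.896%, 0.69% and 7.56% of all genes. Without BCAA-free TAC replicate 1, 2 or 3, 2, 16 and 0 subunits were called, against 4.99%, 2.44% and 0.307% of all genes. By edgeR's quasi-likelihood test on the recovered reads of all 12 libraries 0 subunits were called, 6 had an unadjusted p under 0.05, and the lowest adjusted p was 0.104, where 0.407% of all genes were called. With the GC and length trend removed 4 were called, against 0.544% of all genes. DESeq2 on the recovered reads called 17 higher, against 4.85% of all genes. Likewise 17 were significant and higher in the authors' deposited table, against 4.76% of all genes. Over all 46 genes the log2 fold change correlated with transcript length at a Spearman rho of -0.47 and with GC content at 0.37 (n = 46 genes from shared libraries), against -0.31 and 0.49 over 15635 genes. Complexes II to V had 9 of 41 nuclear subunits called higher (median 0.18), and the mitochondrially encoded complex I genes 0 of 7 called (median -0.22, 2 with an unadjusted p under 0.05). Of 9 regulators of mitochondrial gene expression, 2 were called lower and 0 higher (median -0.25), against 2.89% and 3.34% of all genes. TAC libraries lay below all sham libraries for 6 of these 9, against 15% of all genes. Cardiomyocyte markers summed to 3025030 to 3106500 in BCAA-free TAC hearts and 2747230 to 3008870 in BCAA-free sham hearts, and fibroblast markers to 23498 to 30055 in BCAA-free TAC hearts and 22733 to 24035 in BCAA-free sham hearts. Of 6 fibroblast markers, Pdgfra was called lower (-0.35), 5 had an unadjusted p under 0.05, and TAC libraries lay above all sham libraries for 3 and below them for 2. All 6 macrophage markers had positive values (median 0.19), with C1qa called higher, the cardiomyocyte marker Actc1 was called higher (0.36), and the pericyte marker Rgs5 was called lower (-0.30). Of 8 cardiomyocyte markers, 6 were above 0 and 2 below (median 0.07, lowest -0.27). TAC libraries lay above all sham libraries for 3 of the 8 and below them for 2. The part of these markers in the result was not tested.

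On the BCAA-control diet, 0 of 38 subunits passed the limma test after TAC, although their values were lower in nearly every gene. The median log2 fold change was -0.61 over subunits and -0.39 over Ndufaf genes, against 0.00 over all 15397 genes tested, of which 4.04% were called, 2.95% higher and 1.09% lower. Unadjusted p was under 0.05 for 37 of 38 subunits, and the lowest adjusted p among them was 0.0583, for Ndufb10. TAC libraries lay below all sham libraries for 36 of 38 subunits and 5 of 8 Ndufaf genes, against 17.4% of all genes, and above them for Ndufa4l2 alone, against 17.8% of all genes. The 1 gene called was the assembly factor Ndufaf6 (chr4:11051045-11076205, minus strand, GRCm38), with values of 320, 315 and 401 in BCAA-control TAC hearts, against 534, 482 and 581 in BCAA-control sham hearts (-0.63 ± 0.14, limma adjusted p = 0.0451).

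Ndufb10, of the distal arm, had values of 11282, 8270 and 9910 in BCAA-control TAC hearts, against 13942, 13629 and 19201 in BCAA-control sham hearts (-0.66 ± 0.17). Ndufv1 had 18510, 13669 and 16950 in BCAA-control TAC hearts, against 21630, 23916 and 28429 in BCAA-control sham hearts (-0.59 ± 0.16, limma adjusted p = 0.061). Ndufb6, also of the distal arm, had 3369, 2623 and 2911 in BCAA-control TAC hearts, against 4033, 4012 and 5867 in BCAA-control sham hearts (-0.63 ± 0.17, adjusted p = 0.0611). In all of them the groups were separate and sham replicate 3 was well above the other sham libraries. Ndufa4 had 12855, 10176 and 12640 in BCAA-control TAC hearts, against 16917, 14327 and 24164 in BCAA-control sham hearts (-0.61 ± 0.19, adjusted p = 0.0878). Ndufa4l2 was the 1 gene with a positive value, with 478, 564 and 451 in BCAA-control TAC hearts, against 406, 421 and 442 in BCAA-control sham hearts (0.23 ± 0.12, adjusted p = 0.247). Ndufaf1, which acts in an early membrane-arm assembly complex, had the value nearest 0 of the Ndufaf genes, with 1188, 981 and 1092 in BCAA-control TAC hearts, against 1250, 1128 and 1419 in BCAA-control sham hearts (-0.22 ± 0.12, adjusted p = 0.274).

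The number of calls on this diet differed between tests, as did the share of all genes called. By edgeR's quasi-likelihood test on the recovered reads of all 12 libraries, 37 subunits and 5 Ndufaf genes were called lower, against 9.23% of all genes. By DESeq2 on the recovered reads 34 subunits and 3 Ndufaf genes were called lower, against 5.94% of all genes. The same numbers were significant and lower in the authors' deposited table, against 5.91% of all genes. By edgeR on the 6 libraries alone 0 subunits and 1 Ndufaf gene were called, 37 subunits had an unadjusted p under 0.05, and 0.86% of all genes were called lower. Without BCAA-control sham replicate 3 the subunit median was -0.41 and 0 of the 46 genes were called by limma, against 0.638% of all genes. Ndufaf6 was not called when any 1 of the 6 libraries was left out, and without BCAA-control TAC replicate 1 Ndufb10 was called instead (-0.77, adjusted p = 0.0477). With the GC and length trend removed 0 of the 46 genes were called, against 5.47% of all genes, 36 subunits had an unadjusted p under 0.05, and the medians were -0.46 and -0.29.

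Complexes II to V had a median of -0.58 with 1 of 41 called lower and 39 with an unadjusted p under 0.05. TAC libraries lay below all sham libraries for 39 of these 41, against 17.4% of all genes. The mitochondrially encoded complex I genes had a median of -0.05 with 0 of 7 called by limma and 1 with an unadjusted p under 0.05. Esrra fell (-0.57), and Ppargc1a was at -0.59 and not called. The cardiomyocyte markers summed to 1646000 to 2037100 in BCAA-control TAC hearts, against 2289400 to 2372570 in BCAA-control sham hearts. All 8 were below 0 (median -0.43), with 1 called lower and 4 with an unadjusted p under 0.05. The fibroblast markers summed to 44918 to 111458 in BCAA-control TAC hearts, against 22657 to 25886 in BCAA-control sham hearts, with 4 of 6 called higher. All 5 markers of smooth muscle and pericytes were above 0 (median 0.66), with 1 called higher. Of 6 macrophage markers 1 was called higher. Over all genes 2.95% were called higher and 1.09% lower. The part of these markers in the subunit values was not tested. The comparison shares its TAC libraries with the diet comparison after TAC and its sham libraries with the diet comparison after sham, so their values are not independent.

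**Figure D4:**
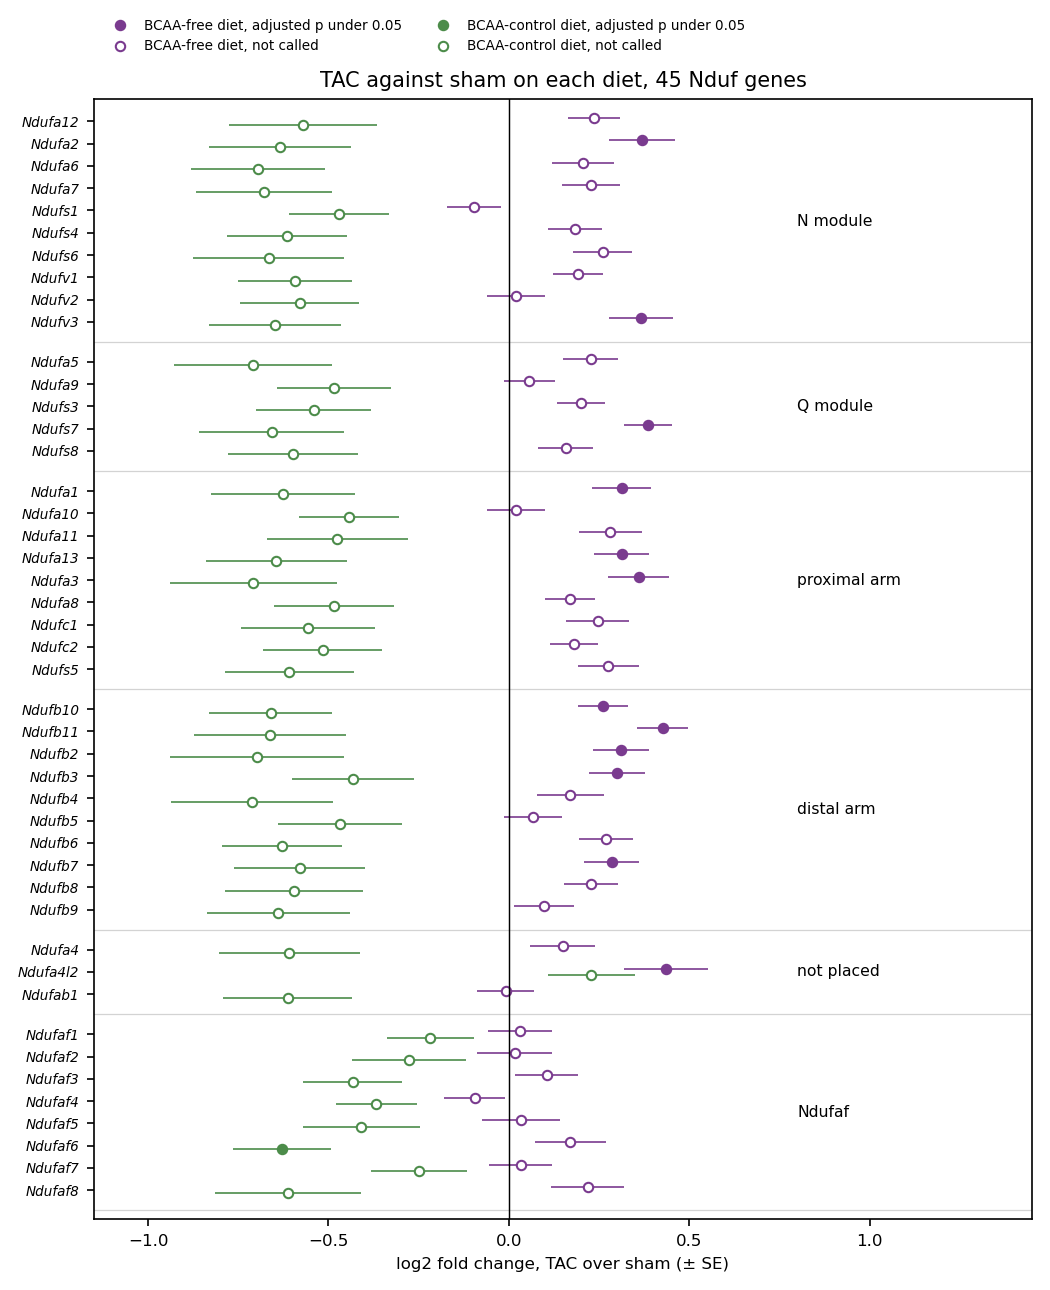
Log2 fold change of TAC over sham (x axis, with SE bars) for 45 of the 46 Nduf genes (y axis, grouped by module), on the BCAA-free diet (purple) and on the BCAA-control diet (green); filled points passed an adjusted p under 0.05. The BCAA-free values lie between -0.10 and 0.44 and the BCAA-control values between -0.71 and 0.23, and Ndufa4l2 is the 1 gene to the right of 0 on both diets.

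The difference between the TAC effects on the 2 diets was tested directly as an interaction over all 12 libraries. It was called for 27 of 38 subunits and 2 of 8 Ndufaf genes, each with a higher TAC effect on the BCAA-free diet, where 8.65% of 15195 genes tested were called, 4.92% in that direction and 3.73% in the other. The median interaction was 0.81 (log2) over subunits and 0.37 over Ndufaf genes, against -0.03 over all genes. By module, 8 of 10 N module, 5 of 6 Q module, 7 of 9 proximal and 7 of 10 distal subunits were called. The largest value was that of Ndufb11, at 1.09 ± 0.24 (limma adjusted p = 0.0208), followed by Ndufa3 at 1.07 ± 0.28 and Ndufs7 at 1.04 ± 0.22. Ndufaf6 had the smallest p of the 46 genes (0.80 ± 0.16, adjusted p = 0.0172), and Ndufaf8 was the other assembly factor called (0.83 ± 0.24, adjusted p = 0.0462). Of the core subunits, Ndufs1 (0.37 ± 0.16, adjusted p = 0.136) and Ndufv2 (0.60 ± 0.19, adjusted p = 0.0636) were not called. Ndufa4l2 had the lowest value, 0.21 ± 0.17 (adjusted p = 0.434), and Ndufaf1 the lowest of the Ndufaf genes, 0.25 ± 0.15 (adjusted p = 0.295).

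The same interaction was called above 0 for 32 of 41 nuclear subunits of complexes II to V (median 0.77). It was also called above 0 for 3 of 12 further complex I assembly factors (Dmac2, Ecsit and Foxred1). Over all genes 4.92% were called above 0 and 3.73% below. Of 7 mitochondrially encoded complex I genes 0 were called by limma, and none had an unadjusted p under 0.05. Calls became fewer without some of the libraries, over all genes as over the Nduf genes. Without BCAA-free TAC replicate 3, 0 Nduf genes and 1.42% of all genes were called, and without BCAA-free TAC replicate 1, 5 and 2.88%. Without BCAA-free sham replicate 1, 2 or 3, 3, 2 and 16 Nduf genes were called, against 1.95%, 1.83% and 6.61% of all genes. Without BCAA-control TAC replicate 2 or 3, 10 and 13 were called, against 4.18% of all genes in each fit. Over the 12 left-out libraries the subunit median stayed between 0.60 and 0.94. With the GC and length trend removed 19 subunits and 1 Ndufaf gene were called, against 3.19% of all genes, and the medians were 0.62 and 0.33. Before that removal the interaction of the 46 genes correlated with transcript length (Spearman rho -0.43) and GC content (0.24). Over 15163 genes the correlations were -0.37 and 0.30. Without BCAA-control sham replicate 3, 28 subunits and 2 Ndufaf genes were called, against 8.06% of all genes. Cell-type markers also differed in the interaction. All 6 fibroblast markers were below 0 (median -1.09), with Pdgfra and Dcn called and 5 with an unadjusted p under 0.05. All 5 markers of smooth muscle and pericytes were below 0 (median -0.68), with Rgs5 called, and all 8 cardiomyocyte markers were above 0 (median 0.44), with Tnni3 and Myl2 called. Of the 6 macrophage and 5 endothelial markers 0 were called by limma, and 1 and 2 had an unadjusted p under 0.05. The part of these markers in the interaction of the Nduf genes was not tested.

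In sham hearts, where the diets were compared without pressure overload, 0 of the 46 genes were called by limma, against 0.624% of 15217 genes tested. Values were lower on the BCAA-free diet, with medians of -0.24 over subunits and -0.27 over Ndufaf genes against 0.00 over all genes, and 7 subunits and 3 Ndufaf genes had an unadjusted p under 0.05. By DESeq2 and by edgeR on 12 libraries 0 subunits were called, and edgeR called Ndufaf6 lower, where 3.47% and 2.12% of all genes were called. BCAA-free libraries lay below all BCAA-control libraries for 11 of 38 subunits and 4 of 8 Ndufaf genes, against 11.3% of all genes. Ndufaf6 had values of 363, 348 and 399 in BCAA-free sham hearts, against 516, 467 and 556 in BCAA-control sham hearts (-0.47 ± 0.12, limma adjusted p = 0.0987), with separate groups. Ndufa4l2 had 354, 297 and 296 in BCAA-free sham hearts, against 392, 408 and 423 in BCAA-control sham hearts (-0.37 ± 0.13, adjusted p = 0.183). Ndufaf3, which acts in Q module assembly, had 575, 579 and 637 in BCAA-free sham hearts, against 765, 664 and 937 in BCAA-control sham hearts (-0.39 ± 0.13, adjusted p = 0.19). Ndufaf5 had 390, 395 and 429 in BCAA-free sham hearts, against 511, 442 and 660 in BCAA-control sham hearts (-0.39 ± 0.15, adjusted p = 0.225). Ndufaf4, the Ndufaf gene nearest 0, had 1476, 1383 and 1693 in BCAA-free sham hearts, against 1703, 1543 and 1659 in BCAA-control sham hearts, and Ndufa4 had 15592, 14380 and 15535 in BCAA-free sham hearts, against 16348, 13879 and 23137 in BCAA-control sham hearts. The groups overlapped in both genes. In Ndufa4, Ndufaf3 and Ndufaf5 BCAA-control sham replicate 3 was the highest library, and without it the medians were -0.04 over subunits and -0.10 over Ndufaf genes. The 7 mitochondrially encoded complex I genes had a median of 0.23, with 0 called by limma and 3 with an unadjusted p under 0.05. Cell-type markers differed between the same groups. The 6 macrophage markers summed to 4121 to 4857 in BCAA-free sham hearts, against 5257 to 7494 in BCAA-control sham hearts, and each had a negative value and an unadjusted p under 0.05 (median -0.59, 0 called by limma). The 6 fibroblast markers summed to 18676 to 19739 in BCAA-free sham hearts, against 21860 to 25016 in BCAA-control sham hearts, with a median of -0.43 and Col3a1 called lower (-1.42). The 5 markers of smooth muscle and pericytes summed to 25722 to 28613 in BCAA-free sham hearts, against 19502 to 23017 in BCAA-control sham hearts, with a median of 0.37 and Myh11 called higher (1.18). Of 8 cardiomyocyte markers 5 were below 0 (median -0.17), and of these and the 5 endothelial markers 0 were called by limma, with 3 and 0 at an unadjusted p under 0.05. The part of these markers in the Nduf values was not tested.

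**Figure D5:**
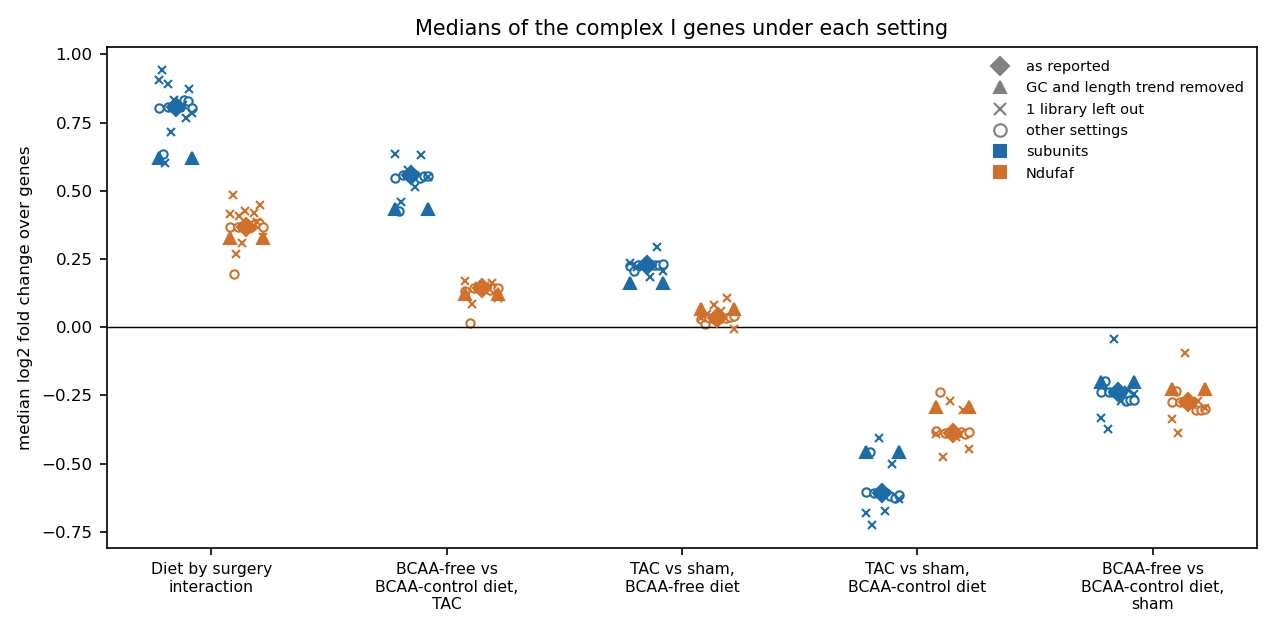
Median log2 fold change over genes (y axis) for 38 subunits (blue) and 8 Ndufaf genes (orange) in the interaction and the 4 comparisons (x axis); diamonds are the values as reported, triangles the values with the GC and length trend removed, crosses those with 1 library left out and circles the other settings. The subunit median of the diet comparison after TAC stays between 0.43 and 0.64, and that of TAC against sham on the BCAA-control diet between -0.72 and -0.41.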

How the data were processed

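PolyA RNA of 12 mouse heart samples was compared in 4 groups of 3 libraries. The submitters' processing notes name Trimmomatic 0.36, STAR 2.5.2b, Subread 1.5.2, DESeq2, GRCm38 and mm10 without giving their roles. There is 1 table per pair of groups, and its values, as the authors deposited them, are a signal: gene read counts over 1 size factor per library. The log2 fold changes and p-values in it are, per the file headers, the authors' own, and were used here only to count their significant genes (adjusted p under 0.05). All values in the 24 library columns were whole reads within 0.01, and a library had identical reads in both of its tables. In 6 columns the smallest value was not 1 read, so that the size of a read was inferred from the other low values. The tables hold 15438 to 15936 genes and leave out genes at low levels.

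Each pair of groups was fitted in its own table with limma 3.58.1 (R 4.3.3; trend, robust variances) on log2(value + 1), keeping genes whose mean value reached 10, and the interaction was fitted on the 12 libraries of both TAC tables. Benjamini-Hochberg adjustment covered every gene in a fit. Alternatives were edgeR 4.0.16 and DESeq2 1.42.0 on the recovered reads, TMM rescaling, scaling to library totals, other filters (none, or a minimum mean of 100), a larger pseudocount (10), a replicate block, removal of a GC and transcript length trend per library (splines with 4 degrees of freedom, GENCODE M21 on GRCm38, 99.8% of IDs matched), and leaving out each library. The limma fit of each pair of groups was run on simulated counts with known changes and no GC or length trend. The interaction and the alternatives were not run on simulated counts.

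The genes, gene lists, motifs and tests were chosen with earlier results of these data known, and the YY1 motif was shortened by its last base after a first search. Values in every library are given for the 4 genes with the smallest p in a comparison, for Ndufa4 and Ndufa4l2, for the core subunits in at least 1 comparison, and for Ndufaf genes called or at an extreme; 1 gene that falls under this rule is counted but not reported here by itself. An exact permutation test of 3 against 3 on a single gene cannot go below p = 0.1 and was not used.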

Additional observations from a re-analysis of the deposited data

Results flagged for a closer look

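The test of the interaction between diet and surgery singled out 29 of the 46 genes, 27 subunits and 2 assembly factors, because the effect of TAC differed between the diets. The interaction is the log2 TAC effect on the BCAA-free diet minus that on the BCAA-control diet. Among the called genes it was 1.04 for Ndufs7, 0.92 for Ndufb10, 0.90 for Ndufb6, 0.83 for Ndufaf8, 0.80 for Ndufaf6, 0.78 for Ndufv1, 0.76 for Ndufs8 and 0.74 for Ndufs3. These are a part of the called genes, and Ndufb11 (1.09) and Ndufa3 (1.07) had larger values. The 2 tables it rests on were normalized separately, and the same numbers, 27 subunits and 2 assembly factors, were called when it was computed from the 2 tables that compare the diets, an alternative added after the data were seen. Without BCAA-free TAC replicate 3, 0 of the 46 genes and 1.42% of all genes were called.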

How the results depend on the processing

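The number of Nduf genes called after TAC on the BCAA-control diet was 1, and became 0 with library totals alone or with the GC and length trend removed (with or without the replicate block), 11 with the replicate block, 37 by DESeq2 and 42 by edgeR on 12 libraries; it was 0 to 1 with 1 library left out. Over all genes 4.04% were called as reported, 9.19% with library totals alone, 5.47% with the trend removed, 0.488% with that and the block, 5.34% with the block, 14.3% by DESeq2, 20.0% by edgeR on 12 libraries and 0 to 7.1% with 1 library left out. After TAC on the BCAA-free diet it was 12, and became 0 by edgeR on 12 libraries, 4 with the GC and length trend removed, 5 with that and the replicate block, and 0 to 16 with 1 library left out, where the share of all genes was 6.23% as reported and 0.407%, 0.544%, 1.09% and 0.307 to 7.56% in these alternatives. Between the diets it was 0 in sham hearts, became 1 by edgeR on 12 libraries and stayed 0 with 1 library left out. Over all genes 0.624%, 2.12% and 0.0395 to 3.13% were called in these fits. Between the diets after TAC the number was 36, against 34.2% of all genes. With 1 library left out it was 27 to 38, against 21.3 to 33.3% of all genes. For the interaction it was 29, with 0 to 39 with 1 library left out, against 8.65% of all genes and 1.42 to 11.4% with 1 library left out. With library totals alone the Ndufaf median was 0.014 between the diets after TAC and 0.20 in the interaction. With 1 library left out, the subunit and Ndufaf medians were -0.72 to -0.41 and -0.48 to -0.27 after TAC on the BCAA-control diet, 0.19 to 0.29 and -0.0058 to 0.11 after TAC on the BCAA-free diet, -0.37 to -0.04 and -0.39 to -0.10 between the diets in sham hearts, 0.46 to 0.64 and 0.09 to 0.17 between them after TAC, and 0.60 to 0.94 and 0.27 to 0.48 in the interaction. The cause of these shifts was not tested. Same-numbered libraries did not deviate together (correlations of their deviations from the group means of -0.18 to 0.08), so the replicate numbers were not taken as pairs. The block also raised the subunits called after TAC on the BCAA-free diet to 18 and in the interaction to 36. Over all genes 8.43% and 10.4% were called with the block in these comparisons. Over the named genes and alternatives, 1075 values stayed on their side of the threshold, 46 passed it only in the alternative and 102 only as reported, and 0 changed sign where called in either fit. With 3 libraries in a group, the spread between libraries sets the precision of these comparisons.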
